A study of Mus musculus with 33 samples.

Results

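The genes of neurosteroid synthesis were followed in bulk RNA-seq of the mouse posterior hypothalamus (PH) and preoptic area (POA) before and after ovariectomy (OVX). The members were 10 genes chosen by name, namely *Tspo*, *Star*, *Cyp11a1*, *Cyp19a1*, *Srd5a1*, *Srd5a3*, *Akr1c14*, *Sts*, *Fdx1* and *Fdxr*. Of these, 9 were analyzed among 41565 named genes, and *Sts*, which encodes steroid sulfatase, was not analyzed here. The mice were adult wild-type C57BL/6 females with no transgene. The control libraries are called sham in their titles and intact in the genotype label, and the study's methods describe these mice as killed in diestrus before any OVX; they are called sham here. The other groups were collected 14 days (14dOVX) and 4 months (4mOVX) after bilateral OVX. Since the control mice were killed before OVX, time since OVX and the months of added age cannot be told apart at 4mOVX. The PH gave 4 sham, 6 14dOVX and 6 4mOVX libraries, and the POA gave 5, 6 and 6. Each group was split over batch 1 and batch 2 of the labels, with 2 or 3 libraries in each. For 1 of the POA 14dOVX libraries the genotype label gives only the number 14, and its time was taken from its title. The sources used here do not say whether each library came from 1 mouse, so the *P* values measure the spread between these libraries.

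Neurosteroids are steroids that the brain makes or finishes on site. In the classical scheme, cholesterol is moved into the mitochondrion with the help of StAR and of proteins of the outer membrane such as TSPO, and the side-chain cleavage enzyme CYP11A1 turns it into pregnenolone with electrons passed on by ferredoxin reductase (*Fdxr*) and ferredoxin (*Fdx1*). The 5α-reductases and the 3α-hydroxysteroid dehydrogenase *Akr1c14* then convert progesterone to allopregnanolone, a modulator of GABA-A receptors, and aromatase (*Cyp19a1*) converts androgens to estrogens. TSPO is also known as a protein of microglia and astrocytes and as the target of imaging ligands for glial reactivity, and aromatase is known from small groups of neurons of the preoptic area and bed nucleus.

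The deposited values are a normalized signal on a linear scale, not read counts, so the depth behind each value is unknown and no counting interval is given. Genes without measurable expression lay at a floor of 22.1, and values near it are compressed. Signals of different genes were not set against each other, since they are not per length. Levels were not compared between the regions, since the signals of floor genes varied along 1 shared component, 83.5% of it between the regions. Floor genes were those with an SD of log2 signal under 0.02, so this component was small in size. Over genes tested in both regions, the median absolute log2 difference of the region means was 0.05. All 9 genes reached 2 times the floor in at least 4 PH libraries and at least 5 POA libraries and were tested in both regions. *Tspo*, *Star*, *Srd5a1*, *Srd5a3*, *Akr1c14*, *Fdx1* and *Fdxr* did so in every library, *Cyp19a1* in 15 of 16 PH and 15 of 17 POA libraries, and *Cyp11a1* in 14 PH libraries and all 17 of the POA. The defining markers of neurons, astrocytes, oligodendrocytes and microglia, 42 genes in all, lay at 2 times the floor or more in every library. PH 14dOVX replicate 5 and POA 14dOVX replicate 6 were treated as standing apart from the other libraries of their regions, and no set criterion for this choice is given here. The first gave the lowest 14dOVX signals of *Tspo*, *Cyp19a1* and *Fdxr* and the highest of *Akr1c14* in the PH, and the second the highest 14dOVX signals of *Tspo* and *Fdxr* and the lowest of *Cyp19a1* in the POA. In bulk tissue, fewer cells of a type and less RNA per cell cannot be told apart.

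Aromatase illustrates what a gene-level signal adds up. RefSeq gives *Cyp19a1* 3 start sites and *Cyp11a1* 2, and the signal does not say from which of them the RNA came. The windows of these low-signal genes are printed from 250 bases before to 50 bases after each start, beside that of *Srd5a1*, whose signal was far from the floor. They were read from RefSeq promoters of GRCm38.p6 and matched exactly at 1 place each in GRCm39. Letters are 5′ to 3′ on the strand of the gene, and capitals mark 3 searched motifs, which are the nuclear receptor element AGGTCA and the GC box GGGCGG on both strands and the TATA box TATAAA on the sense strand.
Cyp19a1, distal start, chr9:54175399-54175698, minus strand: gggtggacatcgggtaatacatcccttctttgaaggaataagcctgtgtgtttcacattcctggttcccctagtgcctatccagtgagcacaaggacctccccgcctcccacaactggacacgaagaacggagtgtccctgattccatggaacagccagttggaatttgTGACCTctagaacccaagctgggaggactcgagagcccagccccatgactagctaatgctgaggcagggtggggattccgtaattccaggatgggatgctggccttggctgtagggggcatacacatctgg
Cyp19a1, middle start, chr9:54136149-54136448, minus strand: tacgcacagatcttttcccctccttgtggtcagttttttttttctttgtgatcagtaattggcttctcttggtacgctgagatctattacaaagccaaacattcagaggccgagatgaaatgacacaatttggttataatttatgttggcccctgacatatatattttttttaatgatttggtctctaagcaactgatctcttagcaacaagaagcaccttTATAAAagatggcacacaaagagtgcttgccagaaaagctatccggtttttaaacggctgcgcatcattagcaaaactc
Cyp19a1, proximal start, chr9:54100978-54101277, minus strand: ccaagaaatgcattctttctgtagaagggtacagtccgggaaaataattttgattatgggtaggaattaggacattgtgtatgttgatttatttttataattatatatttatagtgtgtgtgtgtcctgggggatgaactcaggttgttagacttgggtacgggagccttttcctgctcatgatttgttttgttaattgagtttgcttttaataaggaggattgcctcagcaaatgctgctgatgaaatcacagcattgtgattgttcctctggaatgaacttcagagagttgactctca
Cyp11a1, upstream start, chr9:57905057-57905356, plus strand: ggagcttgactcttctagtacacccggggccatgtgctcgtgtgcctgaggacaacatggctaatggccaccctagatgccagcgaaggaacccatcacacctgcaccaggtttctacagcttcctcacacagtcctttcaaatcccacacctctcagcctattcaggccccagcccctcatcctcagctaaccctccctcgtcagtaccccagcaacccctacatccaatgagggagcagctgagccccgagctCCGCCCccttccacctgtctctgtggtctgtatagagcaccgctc
Cyp11a1, second start, chr9:57921985-57922284, plus strand: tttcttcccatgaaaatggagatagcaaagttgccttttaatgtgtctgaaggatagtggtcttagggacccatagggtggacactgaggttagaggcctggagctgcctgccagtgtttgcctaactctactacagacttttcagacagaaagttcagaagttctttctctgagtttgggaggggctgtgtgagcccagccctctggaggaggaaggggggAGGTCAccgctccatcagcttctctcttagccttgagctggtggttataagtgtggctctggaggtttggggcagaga
Srd5a1, chr13:69759533-69759832, minus strand: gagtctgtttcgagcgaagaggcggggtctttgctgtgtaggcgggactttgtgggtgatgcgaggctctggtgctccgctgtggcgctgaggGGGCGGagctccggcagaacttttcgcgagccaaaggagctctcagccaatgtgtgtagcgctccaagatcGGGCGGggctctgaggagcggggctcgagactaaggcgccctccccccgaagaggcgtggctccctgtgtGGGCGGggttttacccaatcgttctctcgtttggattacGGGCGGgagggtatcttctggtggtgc

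In GENCODE M39 the distal window of *Cyp19a1* lay outside the annotated gene, the proximal window was intronic, and 240 of the 300 bases of the middle window were exonic. The upstream window of *Cyp11a1* lay outside its gene and the second window was exonic throughout. For *Srd5a1*, 218 bases were exonic and the rest lay upstream of the gene. The TATA box was found in the middle *Cyp19a1* window alone among the 10 windows of 7 members, against 8.32% of 32851 mouse windows. The receptor element was found in the distal *Cyp19a1* window and the second *Cyp11a1* window, against 16.3% of all windows. No *Cyp19a1* window held a GC box, whereas the windows of *Srd5a1*, *Srd5a3*, *Fdxr* and *Fdx1* held 4, 3, 3 and 1 and the upstream *Cyp11a1* window 1, with 35.7% of all windows holding at least 1. The GC content was 37.7% and 38.3% in the proximal and middle *Cyp19a1* windows, 54.7% in the distal one and 63.0% for *Srd5a1*, with a median of 52.7% over all windows. The palindromic estrogen response element, GGTCA and TGACC 3 bases apart, and the cyclic AMP response element TGACGTCA were in none of the 10 windows, and they occur in 0.0700% and 1.79% of all windows. *Tspo* and *Star* are not shown.

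None of the 9 members was called in any comparison. In limma's test on log2 signal, with SV1 (a surrogate variable that stands for unmeasured variation) as a covariate and Benjamini-Hochberg adjustment over all genes tested in a region, the share of genes called at an adjusted *P* under 0.05 was itself small. In the PH it was 0% at 14dOVX, 0.0318% at 4mOVX and 0.00909% between the OVX groups, where 0, 7 and 2 of 21991 genes were called. In the POA it was 0.00468%, 0.0936% and 0.0281%, where 1, 20 and 6 of 21359 genes were called. The study's own test of counts (DESeq2) called more protein-coding genes in each of these comparisons. The small shares therefore hold for the test used here. At an unadjusted *P* under 0.05, 1 member each passed for 14dOVX against sham, 4mOVX against sham and 4mOVX against 14dOVX in the POA and for both OVX groups against sham in the PH, and no member passed between the OVX groups of the PH. In all genes tested, 3.04%, 6.07% and 4.09% passed among PH comparisons, in the order above, and 6.13%, 8.50% and 5.11% among POA comparisons. The median log2 fold change of the members was -0.02, -0.05 and -0.02 for the PH comparisons, 0.05, 0.00 and -0.03 for those of the POA, against medians between -0.01 and 0.00 over all genes tested. The signal of every member in every library is plotted below.

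**Figure D1:**
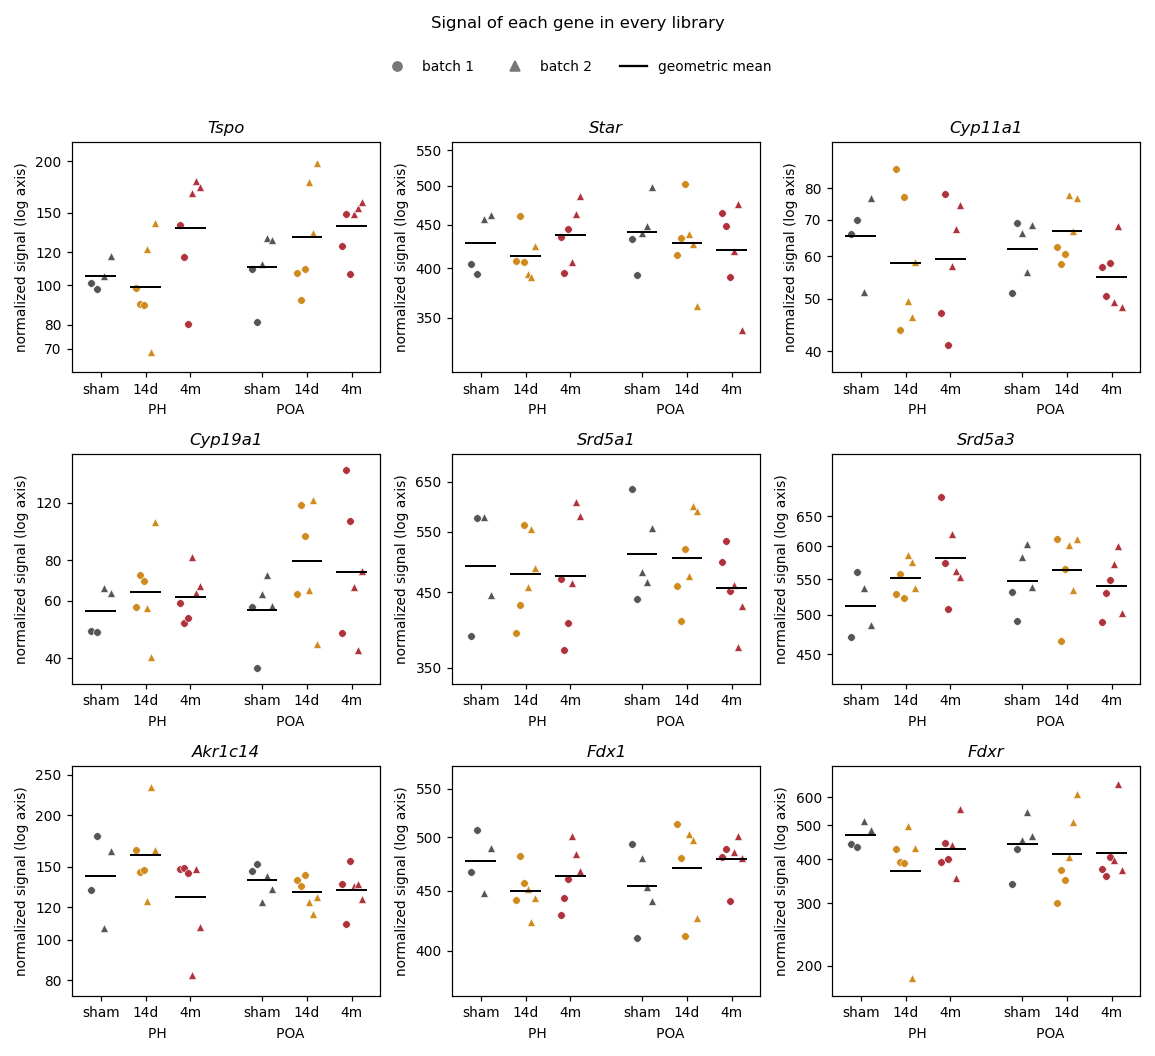
Normalized signal (log axis) of the 9 analyzed genes, 1 panel a gene, in the sham, 14dOVX and 4mOVX libraries of the PH (left in each panel) and POA (right). Circles are batch 1, triangles batch 2 and bars geometric means; the groups overlap in every panel, *Tspo* is higher in batch 2 than in batch 1, and *Fdxr* has 1 low library at 184 in the PH at 14dOVX.

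*Tspo* (chr15:83447735-83458406, GRCm39, plus strand), the translocator protein of the outer mitochondrial membrane, had the smallest *P* of the members in 4 of the 6 comparisons. In the POA its signal was 109, 81.4, 113, 130 and 128 in the sham libraries. At 14dOVX the lowest, median and highest signals were 91.9, 122 and 198, and at 4mOVX they were 106, 149 and 159. At 4mOVX, 4 of 6 libraries lay above every sham library and at 14dOVX 3 of 6 did, so the groups overlapped. The log2 fold change was 0.41 (SE 0.13) at 4mOVX, which is 1.33-fold with a 95% CI of 1.10 to 1.61, with limma's *P* at 0.0053 and an adjusted *P* of 0.342. At 14dOVX it was 0.32 (SE 0.13), with an adjusted *P* of 0.80, and 0.25 without replicate 6, the highest library. Between the OVX groups of the POA the log2 fold change was 0.09 (SE 0.12). Over single library splits, the two-sided exact permutation *P* was 0.061 at 4mOVX, or 0.035 with splits kept within batches, and 0.32 at 14dOVX; these are not adjusted for the 54 tests of this kind.

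In the PH, *Tspo* was at 101, 97.7, 105 and 117 in the sham libraries. The lowest, median and highest signals were 68.9, 93.9 and 141 at 14dOVX and 80.5, 154 and 179 at 4mOVX. At 4mOVX, 4 of 6 libraries lay above every sham library and 1 lay below all of them. The log2 fold change was 0.34 (SE 0.16, 95% CI 0.01 to 0.67) at 4mOVX with an adjusted *P* of 0.799, and 0.08 (SE 0.16) at 14dOVX with an adjusted *P* of 1.00 after rounding. The mean log2 signals themselves differed by 0.39 at 4mOVX and by -0.09 at 14dOVX, so the direction at 14dOVX depended on the covariate. The exact permutation *P* for 4mOVX against sham was 0.13, and 0.070 within batches.

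*Tspo* differed between the batches of the labels. Mean log2 signal was higher in batch 2 by 0.36 in the PH and by 0.44 in the POA. In the PH the difference of 4mOVX from sham was 0.14 within batch 1 and 0.64 within batch 2. In the POA it was 0.41 and 0.32, and at 14dOVX it was 0.12 and 0.44. In the PH at 14dOVX it was -0.11 and -0.07. The differences from sham were thus positive in both batches in 3 of the 4 comparisons and negative in both in the PH at 14dOVX.

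*Star* (chr8:26296583-26306010, plus strand), which encodes the steroidogenic acute regulatory protein, varied little. The PH libraries lay between 391 and 486 and the POA libraries between 339 and 502. Mean signal was 429 ± 35.1 (SD, n = 4) in sham, 414 ± 25.8 (n = 6) at 14dOVX and 439 ± 34.1 (n = 6) at 4mOVX in the PH. In the POA it was 442 ± 37.7 (n = 5), 430 ± 45.02 (n = 6) and 423 ± 51.6 (n = 6). The log2 fold changes against sham were between -0.08 and 0.02 in both regions, and the 95% CIs reached no farther than -0.29 and 0.22.

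*Cyp11a1* (chr9:57913694-57935933, plus strand), which encodes the first enzyme of the pathway, was low. Its median signal was 2.82 times the floor in the PH and 2.74 times in the POA. The PH signals were 66.0, 69.99, 51.5 and 76.9 in sham, and the lowest, median and highest were 43.9, 54.0 and 86.9 at 14dOVX and 41.1, 62.5 and 78.2 at 4mOVX. These groups overlapped, and the log2 fold changes against sham were -0.10 (SE 0.22) and -0.16 (SE 0.21). The POA sham signals were 51.3, 69.0, 66.3, 56.0 and 68.4. In the POA the lowest, median and highest signals were 58.0, 64.6 and 78.0 at 14dOVX and 48.2, 54.0 and 68.3 at 4mOVX. The log2 fold changes against sham were 0.13 (SE 0.12) and -0.14 (SE 0.12). At 4mOVX, 4 of 6 POA libraries lay below every 14dOVX library. This comparison gave a log2 fold change of -0.28 (SE 0.12) with limma's *P* at 0.028 and an adjusted *P* of 0.965, and an exact permutation *P* of 0.032, or 0.025 within batches. The same comparison in the PH gave -0.06 (SE 0.20), and there the 95% CI ran from -0.48 to 0.37.

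The electron carriers of CYP11A1 differed in their spread over these libraries. *Fdx1* (chr9:51852253-51875291, minus strand), the ferredoxin, had the smallest residual SD of the members in both regions, 0.07 (PH) and 0.10 (POA) on the log2 scale. Its signals ran from 423 to 507 in the PH and from 410 to 513 in the POA. At 14dOVX and 4mOVX its log2 fold changes against sham were -0.07 and -0.05 for PH tissue, 0.05 and 0.08 for POA tissue, and the 95% CIs stayed between -0.25 and 0.25.

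*Fdxr* (chr11:115158844-115168006, minus strand), the ferredoxin reductase, had residual SDs of 0.35 and 0.33. Batch was not taken out of these SDs. They include PH 14dOVX replicate 5 at 184 and POA 4mOVX replicate 5 at 656, and no SD without these libraries is given. The mean log2 signal of *Fdxr* in batch 2 minus batch 1 was 0.40 in the POA and -0.01 in the PH. The PH sham signals were 444, 434, 514 and 486. The lowest, median and highest signals were 184, 411 and 499 at 14dOVX and 353, 420 and 555 at 4mOVX in the PH. In the PH at 14dOVX, 5 of 6 libraries lay below every sham library, and the lowest of them, replicate 5, was 1 of the libraries that stood apart. The log2 fold changes in the PH were -0.16 (SE 0.13) at 14dOVX and -0.18 (SE 0.12) at 4mOVX, with adjusted *P* of 1.00 and 0.880. Without replicate 5 the value at 14dOVX was -0.12, but SV1 of the PH already set that library apart. With replicate 5 included, the mean log2 signals themselves differed by -0.34 at 14dOVX. The POA sham signals were 341, 429, 455, 545 and 466, and the lowest, median and highest signals were 300.4, 390.1 and 613 at 14dOVX and 359, 387 and 656 at 4mOVX. These groups overlapped, and the log2 fold changes against sham were -0.03 and 0.00.

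Among the enzymes that reduce and finish the steroid ring, *Srd5a1* (chr13:69721568-69759750, minus strand), the 5α-reductase that acts on progesterone and testosterone, ranged from 371 to 608 among PH libraries and from 375 to 635 among POA libraries. Its sham mean of 497 ± 94.9 (n = 4) in the PH stood beside 481 ± 67.9 (n = 6) at 14dOVX and 483 ± 93.5 (n = 6) at 4mOVX. In the POA the means were 516 ± 79.9 (n = 5), 509 ± 75.6 (n = 6) and 458 ± 54.9 (n = 6). The log2 fold changes against sham were -0.02 (SE 0.16) and -0.05 (SE 0.15) for the PH and -0.02 (SE 0.12) for the POA at 14dOVX. At 4mOVX in the POA it was -0.17 (SE 0.12, adjusted *P* 0.732), and within batches the means differed by -0.10 and -0.25.

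*Srd5a3* (chr5:76288111-76304846, plus strand) belongs to the 5α-reductase family by sequence and is best known as the polyprenol reductase of protein N-glycosylation. Its PH signals were 471, 560, 537 and 487 in sham. They ran from 523 to 587 with a median of 547 at 14dOVX, and from 508 to 685 with a median of 569 at 4mOVX. The log2 fold change at 14dOVX was 0.11 (SE 0.10). At 4mOVX, 4 of 6 libraries lay above every sham library, the log2 fold change was 0.18 (SE 0.09, adjusted *P* 0.834), and the differences within batches were 0.19 and 0.18. In the POA, where all 17 libraries lay between 466 and 612, the log2 fold changes against sham were 0.06 (SE 0.08) and 0.00 (SE 0.08).

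*Akr1c14* (chr13:4099002-4141081, plus strand), the 3α-hydroxysteroid dehydrogenase that makes allopregnanolone, belongs to a gene cluster of close relatives, and reads shared with them make its signal less certain. In the POA it lay between 109 and 155 in all 17 libraries and the log2 fold changes against sham were -0.12 (SE 0.10) and -0.10 (SE 0.10). In the PH it was more spread, with 132, 178, 107 and 164 in sham. The lowest, median and highest PH signals were 124, 156 and 234 at 14dOVX and 82.2, 147 and 149 at 4mOVX. The highest of these was again replicate 5 at 14dOVX. The PH log2 fold changes against sham were 0.05 (SE 0.18) and -0.13 (SE 0.17). Without replicate 5 the value at 14dOVX was again 0.05. SV1 of the PH already set that library apart, so leaving it out is no check on it. With replicate 5 included, the mean log2 signals themselves differed by 0.17 at 14dOVX.

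*Cyp19a1* (chr9:54072601-54175394, minus strand) had the widest spread of the members in the POA, with a highest signal 4.04 times the lowest and a residual SD of 0.57 on the log2 scale. In the POA its signal was 57.3, 37.4, 63.1, 72.0 and 57.7 in the sham libraries. The lowest, median and highest signals were 44.3, 79.9 and 122 at 14dOVX and 42.3, 70.2 and 151 at 4mOVX. In both OVX groups 3 of 6 libraries lay above every sham library and the others lay among them. The log2 fold changes were 0.46 (SE 0.32, 95% CI -0.23 to 1.14) at 14dOVX and 0.34 (SE 0.32, 95% CI -0.34 to 1.03) at 4mOVX, with adjusted *P* of 0.864 and 0.807. The upper bounds are 2.21-fold and 2.04-fold. Without POA sham replicate 2, the lowest library at 37.4, the values were 0.24 and 0.13, and without POA 14dOVX replicate 6 the value at 14dOVX was 0.64.

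The batches did not give the same picture for aromatase in the POA. In batch 1 the mean signal was 47.3 in sham, 92.0 at 14dOVX and 102 at 4mOVX. In batch 2 it was 64.3, 77.2 and 60.9. On the log2 scale the differences from sham were 0.94 and 0.98 in batch 1 against 0.14 and -0.11 in batch 2. Each batch held 2 or 3 libraries of a group, and sham replicate 2 was 1 of the 2 sham libraries of batch 1.

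In the PH, *Cyp19a1* was at 48.5, 48.1, 65.8 and 63.5 in sham. The lowest, median and highest signals were 40.2, 63.4 and 105 at 14dOVX and 51.1, 61.4 and 81.8 at 4mOVX. The groups overlapped. The log2 fold change at 14dOVX was 0.35 (SE 0.16) with limma's *P* at 0.045 and an adjusted *P* of 1.00, the exact permutation *P* was 0.48, and the differences within batches were 0.45 and -0.05. Without 14dOVX replicate 6, the highest library, the log2 fold change was 0.23, and without replicate 5 it was 0.35. SV1 of the PH already set replicate 5 apart, so leaving it out is no check on that library. The mean log2 signals themselves differed by 0.20 at 14dOVX. At 4mOVX the log2 fold change was 0.10 (SE 0.16).

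Between the OVX groups, *Tspo* in the PH was higher at 4mOVX than at 14dOVX by 0.26 (SE 0.15), with an adjusted *P* of 1.00 and an exact permutation *P* of 0.071, or 0.025 within batches. *Cyp19a1* gave -0.25 (SE 0.15) in the PH and -0.11 (SE 0.31) in the POA. For *Star*, *Srd5a1*, *Srd5a3*, *Akr1c14*, *Fdx1* and *Fdxr* this comparison ran from -0.18 (*Akr1c14*) to 0.08 (*Srd5a3*) in the PH, and in the POA from -0.15 (*Srd5a1*) to 0.03 (*Fdx1*). The plot of fold changes gives all of them with their intervals.

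**Figure D2:**
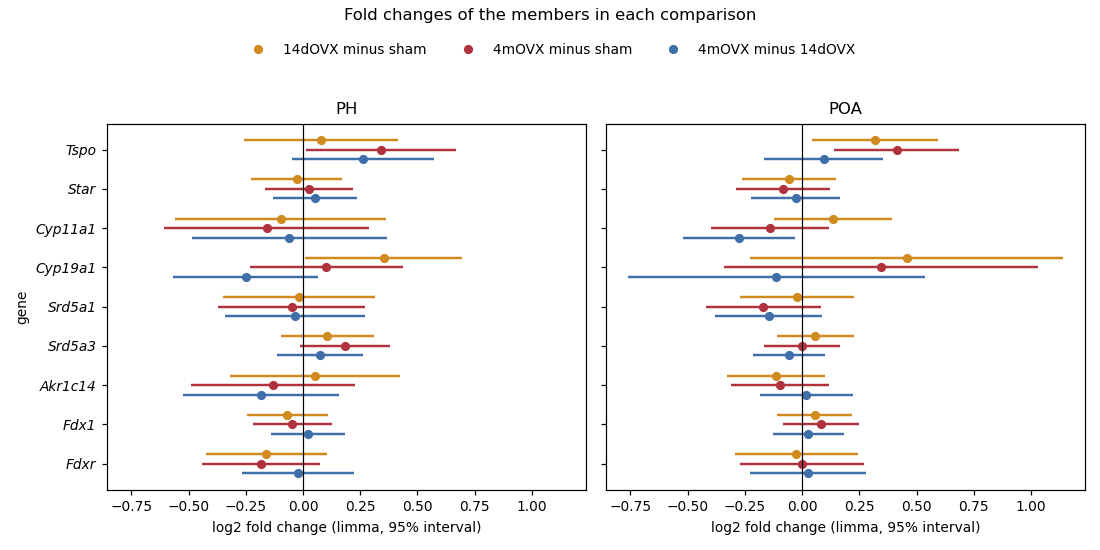
Log2 fold changes (points) of the 9 genes from limma with 95% confidence intervals (lines), for the PH (left) and the POA (right), with 1 color for each comparison. The intervals of *Tspo* at 4mOVX against sham lie above 0 in both regions before adjustment, those of *Star* and *Fdx1* are narrow and include 0, and those of *Cyp19a1* in the POA are the widest.

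The response to OVX was compared between the regions in 1 fit of all 33 libraries, where 1 of 22135 genes (0.00452%) was called for the 14dOVX response and 2 (0.00904%) for the 4mOVX response. No member was called. The fit took PH and POA libraries as independent, and whether those of the same number share a mouse is not known. For *Tspo* the PH response minus the POA response was -0.23 (SE 0.20, 95% CI -0.63 to 0.17) at 14dOVX and -0.07 (SE 0.20, 95% CI -0.47 to 0.33) at 4mOVX. For *Cyp19a1* it was -0.26 (SE 0.39) and -0.30 (SE 0.40). The smallest *P* among the members was that of *Srd5a3* at 4mOVX, 0.123, for a difference of 0.19 (SE 0.12). The intervals leave room for regional differences of the size of the responses themselves.

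The members did not vary as a block from library to library. After the mean of each group and batch was taken off, the 36 pairs of members had a median Pearson *r* of 0.01 over 16 PH libraries and 0.04 over 17 POA libraries. In the PH the values ran from -0.67 for *Akr1c14* with *Fdxr* to 0.68 for *Tspo* with *Fdxr*, and *Tspo* with *Cyp19a1* was at 0.65. Without replicate 5 of 14dOVX, in which *Fdxr* was lowest, these 3 values were -0.46, -0.08 and 0.21, so the positive ones rested on that library. In the POA they ran from -0.66 for *Cyp11a1* with *Cyp19a1* to 0.52 for *Cyp11a1* with *Fdxr*, and to -0.68 and 0.52 without replicate 6 of 14dOVX. These are descriptions, and libraries share their normalization.

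Other genes of steroid metabolism were taken from lists. Of 37 further genes listed with the steroid enzymes, 35 were among the named genes. Of these, 19 (PH) and 20 (POA) passed the filter on low values, and 0 were called. The list was not limited to enzymes known to act on steroids, and *Sulf2* was among the genes tested. Beneath 2 times the floor in every library were *Hsd3b1*, *Hsd3b6*, *Hsd17b3*, *Cyp11b2*, *Srd5a2*, *Akr1c12*, *Akr1c20*, *Hsd11b2* and *Sult1e1*, which include 3β-hydroxysteroid dehydrogenases, aldosterone synthase and estrogen sulfotransferase. Of the same *Hsd3b* family, *Hsd3b2* and *Hsd3b7* reached 2 times the floor in all 33 libraries. The smallest *P* values belonged to *Sult1a1*, a phenol sulfotransferase that also conjugates estrogens. Its mean signal in the PH was 319 ± 49.2 (n = 4) in sham, 325 ± 94.9 (n = 6) at 14dOVX and 419 ± 86.8 (n = 6) at 4mOVX. In the POA it was 321 ± 28.8 (n = 5), 284 ± 19.3 (n = 6) and 389 ± 88.9 (n = 6). The log2 fold change from 14dOVX to 4mOVX was 0.56 (SE 0.14, adjusted *P* 0.483) in the PH and 0.42 (SE 0.11, adjusted *P* 0.593) in the POA.

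The other steroid enzymes named by rank stayed as far from the threshold. *Hsd17b7*, which acts in cholesterol and estradiol synthesis, differed from sham by -0.26 (SE 0.10, adjusted *P* 1.00) in the PH at 14dOVX. *Rdh16* differed by -0.37 (SE 0.17) and -0.51 (SE 0.16, adjusted *P* 0.614) in the PH at 14dOVX and 4mOVX, from a sham signal of 65.7 ± 10.4 (n = 4). *Cyp27a1*, the sterol 27-hydroxylase, differed by 0.29 (SE 0.13, adjusted *P* 0.577) in the POA at 4mOVX, and by 0.17 (SE 0.13) between the OVX groups there. *Akr1c19* differed by -0.58 (SE 0.22) between the OVX groups of the PH, near the floor, and *Cyp7b1*, the oxysterol 7α-hydroxylase, by -0.09 (SE 0.06) in the POA at 14dOVX.

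Of 24 genes of cholesterol delivery and redox supply, 23 were tested in each region and 0 were called. *Tspoap1*, which encodes a binding partner of TSPO, differed by -0.25 (SE 0.11, adjusted *P* 1.00) in the PH at 14dOVX. *Atad3a*, a mitochondrial ATPase, and *Stard4*, a cholesterol carrier, differed by -0.27 (SE 0.09, adjusted *P* 0.638) and -0.20 (SE 0.09, adjusted *P* 0.777) in the PH at 4mOVX. *Nr5a2*, a nuclear receptor that drives steroidogenic genes elsewhere, differed from sham by -0.55 (SE 0.19, adjusted *P* 0.377) in the POA at 4mOVX, from a sham signal of 84.3 ± 10.3 (n = 5). *Por*, the electron donor of microsomal P450 enzymes such as aromatase, differed by -0.13 (SE 0.06, adjusted *P* 0.80) in the POA at 14dOVX. Also named by rank, *Cyb5r3* and *Stard3nl* differed by 0.16 (PH at 14dOVX) and -0.10 (between the OVX groups of the POA).

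All 15 steroid receptors and membrane steroid binding proteins were at 2 times the floor or more in every library, and 0 were called. *Pgr*, the progesterone receptor, had the smallest *P*, with a mean signal of 1945 ± 172 (n = 5) in POA sham and 1728 ± 212 (n = 6) at 4mOVX. Its log2 fold change there was -0.24 (SE 0.06, adjusted *P* 0.199), and in the PH at 4mOVX it was -0.22 (SE 0.09, adjusted *P* 0.712). *Paqr6*, a membrane progestin receptor, differed by -0.29 (SE 0.09, adjusted *P* 0.307) in the POA at 4mOVX. *Esr1*, the estrogen receptor, differed by 0.39 (SE 0.12, adjusted *P* 1.00) in the PH at 14dOVX. *Nr3c2*, *Pgrmc1* and *Pgrmc2* were the others named by rank, at -0.23 (POA at 14dOVX), -0.18 (between the OVX groups of the PH) and 0.13 (PH at 14dOVX).

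Since TSPO is known from glia, 12 lists of cell type and tissue markers were read beside it. All 12 microglia markers had positive fold changes in both OVX groups against sham in both regions. The PH medians were 0.17 at 14dOVX and 0.30 at 4mOVX, and the POA medians 0.14 and 0.21. At an unadjusted *P* under 0.05, 3 of them (14dOVX) and 8 (4mOVX) were higher in the PH, 3 and 10 were higher in the POA, and 1 was called. That gene was *C1qa*, the complement component, in the POA at 4mOVX, where it was higher by 0.43 (SE 0.08, adjusted *P* 0.0428). The summed signal of the 12 markers ran from 15826 to 17106 in POA sham and from 16684 to 20700 at 4mOVX, with overlap. In the PH it ran from 15124 to 16438 in sham and from 16626 to 20727 at 4mOVX, with no overlap. The vascular lists were also higher at 4mOVX in their medians. The summed signal of 10 endothelial markers ran from 9177 to 10136 in PH sham and from 10440 to 13911 at 4mOVX, also with no overlap, and the POA medians were 9829 and 11883. In the PH the summed signal of 6 red cell genes did not overlap either, at 6542 to 8460 in sham and 12140 to 37374 at 4mOVX. The share of all genes whose PH groups separated in this way is not given. The sums of 8 mural cell markers had PH medians of 8309 (sham) and 9317 (4mOVX) and POA medians of 8404 and 9694, with overlap in both regions. At 4mOVX, 4 endothelial and 2 mural markers were higher at an unadjusted *P* under 0.05 in the PH, 2 of each were higher in the POA, 1 endothelial marker was lower there, and 0 were called. The 11 astrocyte markers changed little from sham, with median log2 fold changes of 0.04 both times (PH), 0.01 and 0.02 (POA). The 9 oligodendrocyte markers had medians from -0.16 to -0.13, with 0 positive at 14dOVX and 2 at 4mOVX in each region. For 4 pituitary genes the POA median was 1.99 at 14dOVX and -0.28 at 4mOVX. Choroid plexus sums ran from 3982 to 88028 in POA sham. Fold changes of the remaining lists are not given here. The part of these cell types and tissues in the values of *Tspo* was not tested. Among red cell genes, all 6 were higher at 4mOVX in both regions at an unadjusted *P* under 0.05, and *Alas2*, the erythroid heme synthesis enzyme, was called in the PH (1.37, SE 0.22, adjusted *P* 0.0301).

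Over all libraries of a region, the marker list with the highest Pearson *r* to *Tspo* was that of microglia. The log2 signal of *Tspo* and the mean log2 signal of the 12 markers had a Pearson *r* of 0.91 and a Spearman rho of 0.84 over 16 PH libraries, and 0.77 and 0.84 over 17 POA libraries. Permutation tests gave *P* values for *r* of 1e-05 in the PH, the smallest that 100000 permutations can give, and of 0.00028 in the POA, or 0.00048 and 0.00672 adjusted over the 48 relations computed, and 0.0024 adjusted for rho in either region. Without the 2 libraries farthest from the median of the markers, *r* was 0.86 and 0.83, and without PH 14dOVX replicate 5 and POA 14dOVX replicate 6 it was 0.89 and 0.84. Within batch 1 and batch 2 it was 0.77 and 0.94 for the PH libraries, 0.88 and 0.48 for those of the POA. The value was positive in each batch and lowest in batch 2 of the POA. Permutation of libraries within batches alone gave an adjusted *P* of 0.00288 for the PH and of 0.0577 for the POA. After the mean of each group and batch was taken off, *r* was 0.91 (PH) and 0.46 (POA), and exact permutation within group and batch gave *P* values of 0.0087 and 0.13, or 0.347 and 0.696 adjusted over the 48 relations. The relation in the POA therefore did not pass once batch was kept fixed, and in neither region did it pass after adjustment once group and batch both were.

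**Figure D3:**
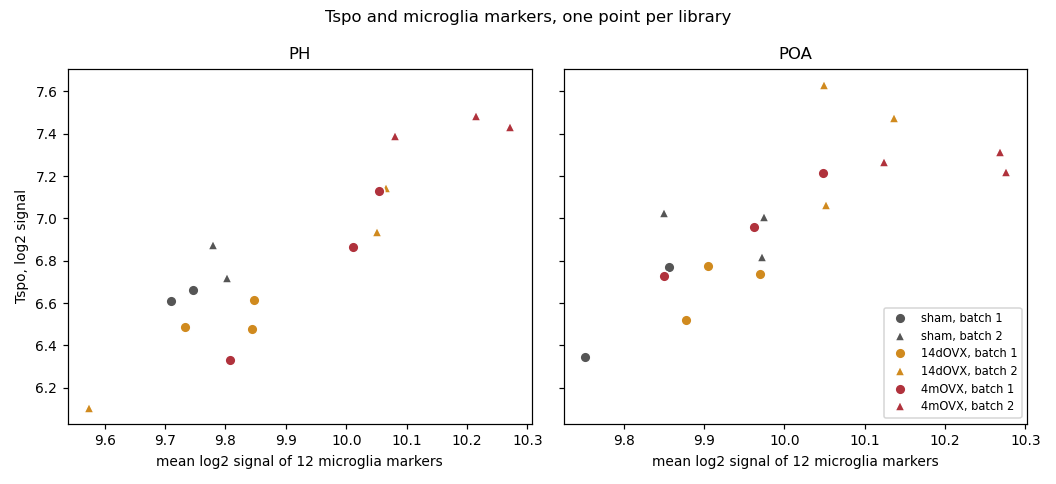
Log2 signal of *Tspo* against the mean log2 signal of 12 microglia markers, 1 point a library, for the PH (left, 16 libraries) and the POA (right, 17 libraries). Color gives the group and shape the batch; the points rise together in both regions (Pearson *r* 0.91 and 0.77), with the sham libraries in the lower part of the range of the markers.

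The other lists had lower values over all libraries of a region, and none of them passed after adjustment. For the astrocyte markers *r* was 0.45 (PH) and 0.58 (POA), with adjusted permutation *P* of 0.310 and 0.130 (rho 0.49 and 0.41, adjusted *P* 0.273 and 0.334), and the values without the 2 farthest libraries were 0.27 and 0.29. The endothelial markers gave 0.50 and 0.54, with adjusted *P* of 0.211 and 0.168 (rho 0.47 and 0.53, adjusted *P* 0.304 and 0.256), and -0.40 and 0.81 within batches 1 and 2 of the PH. The markers of ependymal cells and tanycytes gave 0.59 (PH) and 0.33 (POA), with adjusted *P* of 0.130 and 0.460 (rho 0.51 and 0.16, adjusted *P* 0.256 and 0.830). Within batch 2 of the POA, where microglia markers gave 0.48, ependymal cells and tanycytes gave 0.72, astrocytes 0.63, choroid plexus 0.61, fibroblasts and meninges 0.55 and red cells 0.54, and within batch 2 of the PH mural cells gave 0.86. After the mean of each group and batch was taken off, choroid plexus had the highest POA value, 0.71 (exact permutation *P* 0.028, adjusted 0.444). Fibroblasts and meninges gave 0.57, astrocytes 0.55, and ependymal cells and tanycytes 0.54, against 0.46 for microglia, and the rest were lower. In the PH, ependymal cells and tanycytes gave 0.88 (exact permutation *P* 0.014, adjusted 0.347) beside 0.91 for microglia. No list passed after adjustment. The difference between the lists was not tested.

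For *Cyp19a1* no list passed after adjustment, and the largest relations were with the endothelial markers in the PH, at 0.59 (adjusted *P* 0.130, and rho 0.57 with an adjusted *P* of 0.256), and with the markers of ependymal cells and tanycytes in the POA, at -0.59 (adjusted *P* 0.130, and rho -0.50 with an adjusted *P* of 0.256), with -0.63 and -0.72 within the batches, whereas in the PH the latter list gave 0.38. With the 12 markers of preoptic and bed nucleus neurons, the *r* of *Cyp19a1* was 0.34 in the POA and 0.04 in the PH, with adjusted *P* of 0.419 and 0.971 (rho 0.34 and 0.06, adjusted *P* 0.469 and 0.963).

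**Figure D4:**
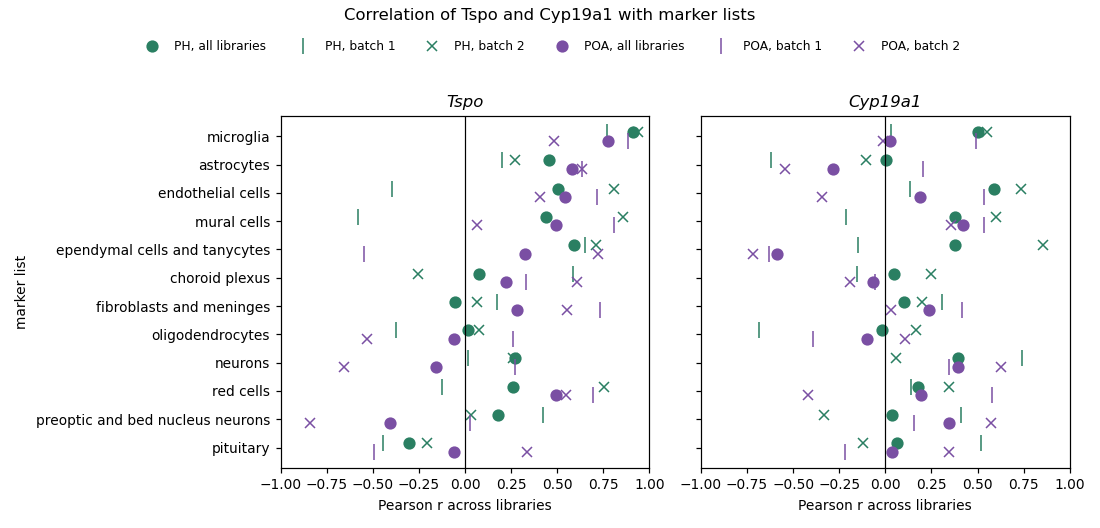
Pearson *r* across libraries of *Tspo* (left) and *Cyp19a1* (right) with the mean log2 signal of each of 12 marker lists. Dots are all libraries of a region, strokes batch 1 and crosses batch 2, in green for the PH and purple for the POA; for *Tspo* the dots of the microglia list are the farthest to the right in both regions, whereas in batch 2 of the POA 5 other lists lie farther right.

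The genes whose deviations from the group and batch means were most like those of *Tspo* were *Csad*, *Rilpl2*, *Ssr2*, *Grwd1* and *Surf4* in the PH, with *r* from 0.98 to 0.96 over 16 libraries and among 16116 protein-coding genes. In the POA they were *Otx2* (of the choroid plexus list), *Zfp672*, *Awat2*, *Arhgap39* and *Car15*, with *r* from 0.94 to 0.85 over 17 libraries and among 15933 genes. For *Cyp19a1* they were *Fam117a*, *Smco4*, *Klhdc4*, *Apaf1* and *Alg8* in the PH (0.91 to 0.88) and *B3gat3*, *Ciao1*, *Ngdn*, *Fam241b* and *Cdh15* in the POA (0.90 to 0.86). No gene was named in both regions for either member. Without PH 14dOVX replicate 5 the values for *Tspo* were 0.94 to 0.88 and those for *Cyp19a1* 0.84 to 0.75, and without POA 14dOVX replicate 6 they were 0.94 to 0.84 and 0.90 to 0.86. These genes were picked as the highest of many over few libraries, and the values are a description.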

How the data were processed

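Dissected, flash-frozen PH and POA tissue gave RNA for stranded mRNA libraries. Per the study's methods the authors used kallisto with GENCODE M30 (mm39), then tximport, then DESeq2 for testing. The deposited values are a normalized signal on a linear scale, and the step that led to them is not given in the sources used here. The signal was log2-transformed with no pseudocount, and 1259 nameless entries were dropped. The main test was limma (version 3.58.1, R 4.3.3) with trend and robust variances, 3 groups per region and SV1 as covariate, in place of a count test. SV1 came from base R code with 5 rounds of reweighting, tested on simulated data. Genes at 2 times the floor in at least 4 PH or 5 POA libraries were tested, with Benjamini-Hochberg adjustment and calls at 0.05. Single members were also compared by two-sided exact permutation tests, and correlations by 100000 permutations, also within batches (scipy 1.17.1, Python 3.11.15); the correlations were chosen after seeing the data. Positions come from GENCODE M39. The members and gene lists were chosen with earlier results of these data known. Named are all members, called list genes, the 2 list genes with the smallest *P* per comparison for the first 3 lists, list genes at the floor, and the 5 genes most like *Tspo* and *Cyp19a1*. The values of 1 list gene named by this rule are not reported here.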

Additional observations from a re-analysis of the deposited data

Results flagged for a closer look

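Of 54 groups of libraries (9 genes, 6 groups each), 3 held a library whose gap to the nearest other was large for the range of its group by Dixon's criterion, and chance flags about 1 in 20 groups, or 2.70 of 54. *Fdxr* in PH 14dOVX replicate 5 was at 184, with the other 5 libraries between 390 and 499, and this library stood apart from the PH libraries in other genes too. *Fdxr* in POA 4mOVX replicate 5 was at 656, with the others between 359 and 407. *Fdx1* in POA 4mOVX replicate 3 was at 441, with the others between 480 and 502. No difference between the regions in the response of a member passed its test.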

How the results depend on the processing

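The count of members called was 0 in each of the 8 comparisons under every alternative. The alternatives changed the covariate (batch, none, SV1 plus batch, or 1 SV1 for both regions), the libraries (2 groups alone, either batch alone, each library omitted), the filter, the pseudocount (50), the scaling (median or quantile) and the variance model. SV1 of the POA followed the batch labels, so batch in its place was not an independent alternative there. The lowest adjusted *P* of a member was 0.218. Same-numbered libraries of a region had a median *r* of 0.22 over 30 pairs, against -0.06 for other numbers. The lowest was -0.31, for a pair that crossed batches. PH and POA libraries of the same time and number had a median of 0.24, against -0.07, with 14 of 16 over 0.1. The lowest was -0.34, for 14dOVX replicate 5. Only group means were taken off, and same-numbered libraries mostly shared a batch where other numbers often did not. These values therefore cannot separate pairing from batch. The numbers were not taken as pairs, and with the replicate block 0 members were called as well. Of 2421 member values under an alternative, 161 changed sign, 104 of them with a library left out. Sign changes of values larger than their SE came with single batches. *Cyp19a1* went from 0.35 to -0.054 (PH, 14dOVX against sham), from -0.25 to 0.17 (PH, 4mOVX against 14dOVX) and from 0.34 to -0.11 (POA, 4mOVX against sham) in batch 2 alone, and *Srd5a1* went from -0.15 to 0.10 (POA, 4mOVX against 14dOVX) in batch 1 alone; the cause was not tested. *Tspo* at 4mOVX against sham stayed between 0.29 and 0.46 in the PH and between 0.35 and 0.49 in the POA with each library left out, whereas *Cyp19a1* in the POA ran from 0.24 to 0.64 at 14dOVX and from 0.13 to 0.51 at 4mOVX, lowest without POA sham replicate 2 both times. Over all genes, the 20 calls of the POA at 4mOVX became 0 to 21 under other settings and 4 to 37 with a library left out (37 without POA 14dOVX replicate 6, 4 without POA sham replicate 1), and the 7 of the PH became 0 to 9 and 5 to 14 (14 without PH 4mOVX replicate 3). The unknown depth and the floor limit *Cyp11a1* and *Cyp19a1* most.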
